A study of Mus musculus with 7 samples.

Results

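Mouse primary myoblasts grown in dishes were compared with satellite cells, the stem cells of muscle (MuSCs), taken from regenerating muscle, by droplet single-cell RNA-seq. A cell was kept if it had at least 200 detected genes and at most 10% of its unique molecular identifiers (UMIs, 1 per captured RNA molecule) from mitochondrial genes. It also needed at least 1 UMI over the myogenic genes Cdh15, Des, Myf5, Myod1 and Myog, and no UMI of Ptprc (leukocytes), Pecam1 (endothelium) or Tnmd (tendon). By this rule 4338 of 4429 barcodes of the single myoblast library were kept, 1168 of 1295 in injured library 1 and 1803 of 2255 in injured library 2. Together these are 7309 of 7979 barcodes, in a series of 7 libraries with 15474 barcodes.

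The series compared MuSCs at rest with MuSCs during regeneration. The injured cells were sorted by flow cytometry from the TE-EDL muscles of C56BL/6J mice 60 h after injury with Notexin at 2 uM. The myoblasts came from hindlimbs of wild-type C56BL/6J mice aged 3 months and were described as sorted satellite cells carried for 4 to 5 passages on collagen (4 passages in another label), in F10 medium with 10% horse serum and basic FGF at 2.5 ng/ul. Homeostatic MuSCs, sorted from muscle of C56BL/6J mice, form 2 further libraries (1361 and 1204 cells kept), used here for the spread between libraries and as a reference level. No agent or allele is shared by all groups in the labels, which give no age or genotype for the sorted cells. Whether the replicate libraries come from separate mice is not stated either, so p-values measure the spread between libraries, which may be technical.

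As background, satellite cells lie under the basement membrane of muscle fibres and are marked by the transcription factor Pax7. After injury they leave rest, express Myf5 and Myod1 and divide as myoblasts. Myog then marks withdrawal from the cell cycle and entry into differentiation, in which the cells fuse and make the sarcomere. In a dish, FGF and serum keep myoblasts dividing, and some of them may still differentiate.

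Depth and several features of the libraries differed between the groups. Kept cells had a median of 7369 and 3286 UMIs in injured libraries 1 and 2 and 24823 in the myoblasts, and the summed UMIs were 8697385, 6245209 and 112325540. The injured libraries shared 253 cell barcodes (19.5% and 11.2% of their barcodes), while the other pairs of libraries shared 1 to 16. With those barcodes left out, 4018 genes were higher and 2992 lower, and each gene named here kept its direction and its side of the threshold. Genes with a near-identical copy elsewhere took 67.8% and 67.9% of injured UMIs, against 54.2% in the myoblasts and 54.9% and 54.8% in the homeostatic libraries. Pseudogenes took 1.81% and 2.13% in injured cells and 0.0385% in the myoblasts. Xist, the RNA of the inactive X chromosome, stood at 699 and 952 unscaled CPM (UMIs of a gene brought to a common library total) in the injured libraries and 0.0356 in the myoblasts, while the Y-linked Ddx3y stood at 0.115 and 0.160 against 46.9. The homeostatic libraries were on the side of the myoblasts (Xist 0.303 and 0.676, Ddx3y 341 and 283). Sex and group therefore cannot be told apart in any result below. In bulk sums such as these, fewer cells of a type and less RNA per cell cannot be told apart either. Markers of other cell types were also found in the kept cells. The 12 macrophage genes summed to 27.8 and 23.9 unscaled CPM in the injured libraries and 4.75 in the myoblasts, where Ptprc (by rule), Adgre1, C1qa, C1qb, C1qc and Ctss were at 0. The 5 neutrophil genes summed to 10.5 and 11.4 against 0.0089, with S100a9, Retnlg, Csf3r and Cxcr2 at 0 in the myoblasts. The 9 fibro-adipogenic genes summed to 17.3 and 15.2 against 65.8, with Lum at 0 in the myoblasts and Dpp4 at 0 in the injured cells. That sum does not stand for most members. The 6 tested below had a median log2 difference of -1.95, from -8.76 to 1.96. Mural markers summed to 0.690 and 0.641 against 8.75, and tenocyte markers to 75.5 and 106 against 53.7 with Tnmd at 0 by the rule. Rgs5 of the mural list and Chodl of the tenocyte list are also in the list of genes linked to resting satellite cells. Sums of these lists therefore do not by themselves show other cell types. In the homeostatic reference cells fibro-adipogenic markers summed to 757 and 835 and tenocyte markers to 413 and 299, and haemoglobin genes to 2163 in library 1. The part of these cells in the results was not tested.

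In a fit of edgeR's quasi-likelihood model to UMIs summed per library, 12433 genes were tested. The myoblasts had 4062 genes higher than the injured MuSCs (32.7% of the genes tested) and 3127 lower (25.2%), at an adjusted p under 0.05. The change exceeded 2-fold for 2776 and 2129 of them. The shares over all genes, 32.7% higher and 25.2% lower, are the reference for each count of list members below. For 90.65% of the genes tested the myoblast value lay above or below both injured values. Only 1 myoblast library was analysed here, so its spread was assumed to be that of the sorted groups (residual degrees of freedom 2, biological coefficient of variation 12.75%). The median log2 difference over all genes tested was 0.19 with the trimmed mean of M-values (TMM) scaling used here and 0.89 without scaling, where 81.2% of calls were higher in place of 56.5%. With DESeq2's own size factors the median was 0.04 and 38.5% of calls were higher. Levels below are TMM-scaled CPM, always with injured library 1 before 2. Genes with near-identical copies or exon overlaps are uncertain, since the counting could split their reads. Among the genes named below, Mef2d, Des, Mybph, Ank1, Rrm2, Slbp, Pcna, Ccne2, Hmgb2, Bax, Notch1, Igf2, Mest, Hmga1, Spp1, Loxl2, Itga6, Itga7, Thbs1, Junb, H2-K1, H2-D1, Gzmd, Gzme, Lepr and Hist1h2ap have a near-identical copy. Cycs, Atp5b, Ldha, Aldoa, Gapdh, Phgdh, Ncl and Bnip3 have one too. An exon of Mef2a, Msc, Sox8, Myl4, Cdkn1a, Ccnd2, Top2a, Notch2, H19, Hmga2, Col4a1, Mt2, Nefl, Atf5 or Jund overlaps another gene. Whether the injured libraries were counted with the same annotation and settings as the others is not given in the sources used here beyond a shared build and tools, and was not tested. Given the shares of copies and pseudogenes above, large folds and zeros of such genes cannot be told apart from a difference in counting. Among 6467 genes with neither, the same fit gave 2323 higher (35.9%) and 1401 lower (21.7%).

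The myogenic transcription factors did not move as a block. The rule that chose the cells used Myf5, Myod1, Myog, Des and Cdh15, so those levels are a description without a test. Myf5, the first of the myogenic factors to act in the embryo, stood at 277 and 453 CPM in the injured libraries and 7.66 in the myoblasts, while homeostatic cells had 200.2 and 254. Myod1, the factor of activated myoblasts, stood at 287 and 318 CPM against 466. Myog was at 160.4 and 250.1 CPM against 434, and at 2.63 and 0 in homeostatic cells. Myf5 was thus the low one in culture, and Myod1 and Myog the high ones. Des, which encodes the muscle intermediate filament, stood at 327 and 326 CPM against 635. Cdh15, the M-cadherin of satellite cells, stood at 42.1 and 51.9 CPM against 152.

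Of 16 further members of the myogenic factor list, 6 rose, 5 fell and 5 did not pass the test. These counts are near the shares over all genes (32.7% higher and 25.2% lower), so nothing is read from them. The median log2 difference was -0.14 (0.56 without scaling) beside 0.19 over all genes tested. Pax7 had 8.42 and 12.1 CPM in the injured libraries and 57.1 in the myoblasts, above the homeostatic 41.1 and 27.7. The log2 difference was 2.50 ± 0.25 (SE; adjusted p = 3.9e-07, edgeR). Its paralog Pax3 rose from 1.82 and 1.53 to 7.87 CPM, by 2.21 ± 0.35 on the log2 scale (adjusted p = 5.44e-05, edgeR). The paired-box genes were thus higher in the cultured cells than in the cells from injured muscle, with no overlap. Mef2c, a partner of Myog in switching on sarcomere genes, went from 2.95 and 2.68 to 76.8 CPM (4.76 ± 0.28, adjusted p = 6.65e-10, edgeR). Mef2a, of the same family, had 93.9 and 109 CPM against 82.5 (-0.30 ± 0.19, adjusted p = 0.201, edgeR; 0.41 without scaling, where its adjusted p was 0.0684). Eya1, a cofactor of myogenic transcription, fell from 66.4 and 82.5 to 4.98 CPM (-3.90 ± 0.26, adjusted p = 3.55e-09, edgeR). So Mef2c and Eya1 moved in opposite directions. Six4 fell from 31.0 and 35.8 to 19.6 CPM (-0.77 ± 0.21), a call lost without scaling, without injured library 2 and at 1000 UMIs per cell (adjusted p = 0.791, 0.0886 and 0.443 with edgeR).

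**Figure D1:**
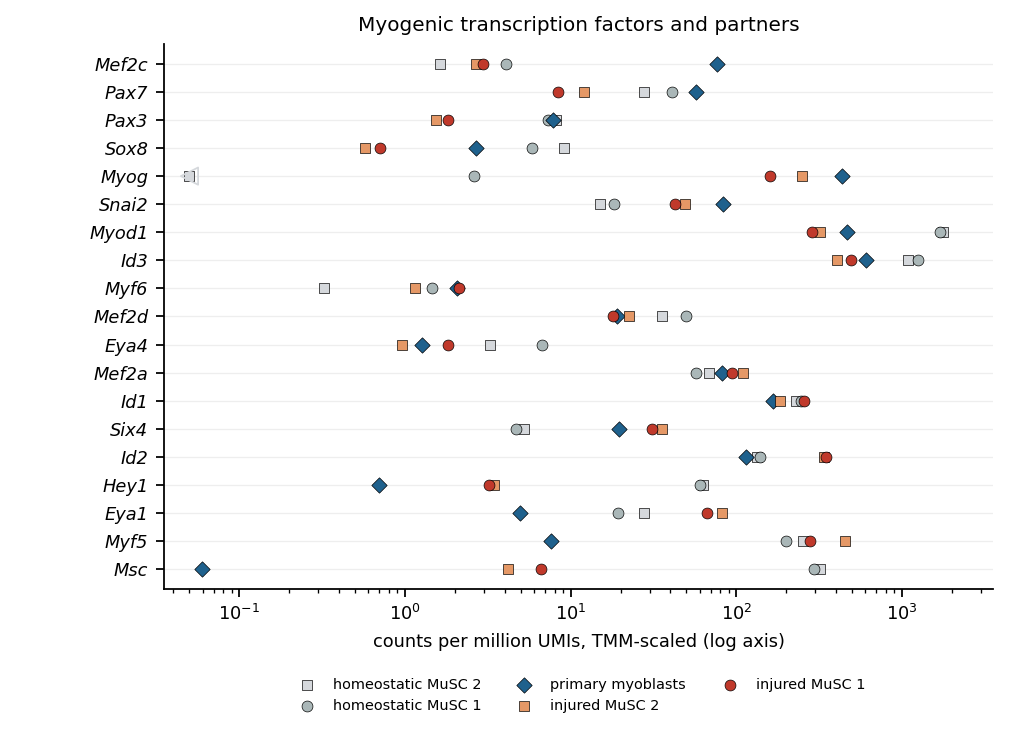
Myogenic transcription factors in each library, in TMM-scaled CPM on a log axis, 1 point per library (homeostatic libraries in grey). Values under 0.05 CPM are drawn at 0.05 as open triangles. Myf5 and Eya1 sit lower in the myoblasts than in both injured libraries, and Pax7 and Mef2c sit higher.

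Inhibitors of the myogenic factors also split. Id2, an inhibitor that binds the partners of Myod1, fell from 348 and 337 to 114 CPM (-1.59 ± 0.19, adjusted p = 2.89e-06, edgeR). Id1 had 258 and 184 CPM against 168, with an adjusted p of 0.111 in edgeR (log2 difference -0.40, and 0.31 without scaling). It passed the threshold as lower with 3 libraries in the fit, without injured library 2 and in the fit of genes without copies or overlaps (adjusted p = 0.0146, 0.0376 and 0.0224 with edgeR). Id3 had 496 and 406 against 610.2 CPM, and its call (0.44 ± 0.17, adjusted p = 0.0406 with edgeR) was lost with DESeq2, at 0.225, and also with 3 libraries, without injured library 2 and in the fit of genes without copies or overlaps. Msc, which encodes the repressor musculin, was at 6.60 and 4.21 CPM in injured cells and 0.0594 in the myoblasts, against 296 and 321 in homeostatic cells (-6.45 ± 0.40, and -7.78 with cells thinned to 2000 UMIs). Hey1, a Notch-driven repressor of satellite cells, fell from 3.23 and 3.44 to 0.700 CPM (-2.24 ± 0.32), with 60.1 and 62.5 CPM in homeostatic cells. Both Msc and Hey1 were thus far higher in homeostatic cells than in either of the other groups. Snai2, a repressor that competes with Myod1 for its sites, rose from 42.7 and 49.4 to 82.9 CPM (0.85 ± 0.19, adjusted p = 0.0013, edgeR). Sox8, which encodes a Sox family regulator, rose from 0.702 and 0.574 to 2.70 CPM (2.06 ± 0.54, adjusted p = 0.00395 with edgeR), a call lost with DESeq2 (0.0738) and with cells thinned to 2000 UMIs (0.0563). The members that did not pass the test also include Mef2d (18.1 and 22.6 CPM against 18.9), Eya4 (1.82 and 0.957 against 1.26) and Myf6 (2.11 and 1.15 against 2.07).

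Of the 30 tested genes linked to the resting satellite cell, 5 rose and 14 fell, with a median log2 difference of -0.74 (-0.06 without scaling) beside 0.19 over all genes. The counts depended on scaling, since without it 11 were higher and 9 lower. Cdkn1b, the p27 brake on cyclin-dependent kinases that satellite cells use at rest, stood at 128 and 153 CPM in the injured libraries, 5.18 in the myoblasts and 27.1 and 19.5 in homeostatic cells (-4.76 ± 0.26, adjusted p = 2.75e-10, edgeR). It was therefore highest in the injured libraries. Pax7 is among the members that rose, as is Megf10, a membrane receptor that keeps satellite cells dividing, with 6.88 and 5.17 CPM against 18.5 (1.60 ± 0.25).

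Most differentiation genes were higher in the myoblasts. Of 38 tested genes of differentiation, fusion and the early sarcomere, 32 rose and 2 fell, and their median log2 difference was 2.76 beside 0.19 over all genes. The median was 3.47 without scaling, 2.62 with DESeq2 and 2.71 in the fit of genes without copies or overlaps. Homeostatic cells held almost no RNA of many of these genes, and injured cells a little.

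Short stretches upstream of 3 of these genes are printed because each holds the core E-box CAGCTG that Myod1 and Myog can bind. They are the 250 bases before the start site from RefSeq on GRCm38.p6, 5′ to 3′ along the gene, with each CAGCTG in capitals. Mylpf lies at chr7:127211358-127211607 on the plus strand, Chrna1 at chr2:73580339-73580588 and Acta1 at chr8:123894776-123895025, both on the minus strand.
Mylpf: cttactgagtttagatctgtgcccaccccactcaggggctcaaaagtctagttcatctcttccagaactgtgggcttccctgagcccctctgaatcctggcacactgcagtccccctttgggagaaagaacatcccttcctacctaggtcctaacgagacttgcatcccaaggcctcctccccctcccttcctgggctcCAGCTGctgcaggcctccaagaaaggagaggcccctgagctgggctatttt
Chrna1: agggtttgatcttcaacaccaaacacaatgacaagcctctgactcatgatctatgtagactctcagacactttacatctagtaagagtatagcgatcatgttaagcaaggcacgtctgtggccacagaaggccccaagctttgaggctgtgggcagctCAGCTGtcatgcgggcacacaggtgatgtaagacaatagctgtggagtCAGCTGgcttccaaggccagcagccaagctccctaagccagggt
Acta1: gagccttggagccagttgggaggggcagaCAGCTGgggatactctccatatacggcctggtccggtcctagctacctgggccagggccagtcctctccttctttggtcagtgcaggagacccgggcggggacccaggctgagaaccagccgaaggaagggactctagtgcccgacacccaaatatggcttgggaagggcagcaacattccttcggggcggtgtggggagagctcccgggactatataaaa
The E-box begins 51 bases before the start in Mylpf and 221 in Acta1, and Chrna1 has a pair, at 92 and 44. CAGCTG, a palindrome searched on both strands, was found in 15 of the 31 differentiation genes with a promoter in the table (48.4%) and in 3979 of all 27025 genes with one (14.7%). A match to these letters is a description of the sequence only.

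Mylpf, the fast regulatory myosin light chain, had 69.0 and 131 CPM in the injured libraries and 1134 in the myoblasts (log2 difference 3.51 ± 0.40, adjusted p = 1.94e-06 with edgeR, 0.0846 with DESeq2). Acta1, the skeletal alpha-actin, had 28.3 and 66.4 CPM against 717 (3.94 ± 0.39, adjusted p = 3.11e-07, edgeR). Chrna1, a subunit of the acetylcholine receptor at the nerve contact, had 347 and 333 CPM against 673 (0.98 ± 0.19, adjusted p = 0.000335, edgeR). All of these sat higher in the myoblasts than in both injured libraries, but Chrna1 was already abundant in injured cells, and homeostatic cells had 47.6 and 33.6 CPM of it. Actc1, the cardiac actin that embryonic muscle also uses, was at 0.842 and 3.06 CPM against 255, and was listed at 0 in both homeostatic libraries (7.14 ± 0.32, adjusted p = 6.72e-11, edgeR). Tnni1 and Tnnc1, troponins of slow and developing muscle, rose from 7.58 and 9.95 to 329 CPM and from 5.33 and 10.9 to 295 CPM. Myh3, the embryonic myosin heavy chain, rose from 4.21 and 9.76 to 124 CPM (4.21 ± 0.29). Embryonic and slow isoforms thus rose along with Mylpf and Acta1. Myl4, the embryonic light chain, rose from 13.5 and 34.2 to 725 CPM (4.96 ± 0.31). Mybph, a myosin-binding protein, went from 0.281 and 2.87 to 90.3 CPM (6.01 ± 0.42, adjusted p = 1.09e-08 with edgeR, 0.0967 with DESeq2).

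Injured library 1 was lower than library 2 for most of these, so the size of the change depended on which was kept. Without injured library 1 and without library 2, the log2 difference was 6.39 and 8.26 for Actc1, 4.41 and 5.77 for Myl4, 3.44 and 4.68 for Acta1, 3.68 and 4.90 for Myh3, and 4.98 and 8.33 for Mybph. None of these changed direction. The members that fell were Tnni2 and Ank1. Tnni2, the fast troponin I, had 76.5 and 97.6 CPM against 47.5 (-0.87 ± 0.30, adjusted p = 0.0207 with edgeR), a call lost without scaling, with DESeq2 and without either injured library. Ank1, an ankyrin of the membrane skeleton, had 86.0 and 87.8 against 46.9 CPM (-0.89 ± 0.21, adjusted p = 0.0018 with edgeR and 0.425 without scaling). The 7 mature myofibre markers summed to 31.6 and 49.3 unscaled CPM in injured cells and 299.9 in the myoblasts.

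**Figure D2:**
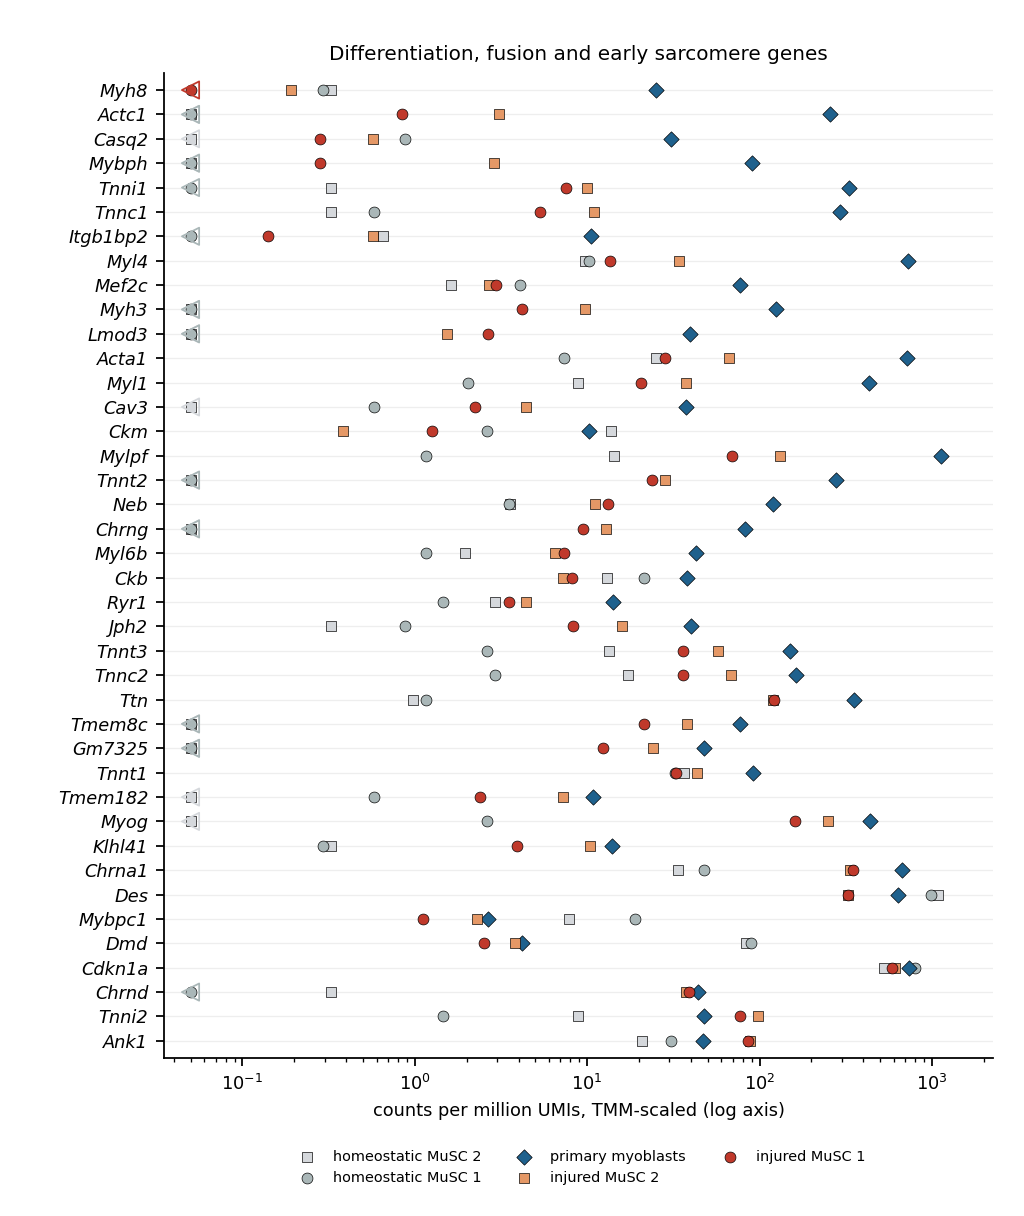
Differentiation and sarcomere genes in each library, in TMM-scaled CPM on a log axis, 1 point per library (homeostatic libraries in grey, values under 0.05 CPM at 0.05 as open triangles). Actc1, Mybph, Tnni1 and Myl4 are far to the right in the myoblasts, and Chrna1 is high in both groups.

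Most UMIs of these genes came from a small share of the myoblasts. To compare cells at equal depth, each was thinned to 2000 UMIs, and shallower cells were left out (14 and 171 in the injured libraries and 0 in the myoblasts). UMIs were summed per cell over the differentiation list without Des, Myog, Cdkn1a and Mef2c. The mean was 1.72 and 2.26 UMIs per cell in the injured libraries and 17.6 in the myoblasts, but the median was 1 and 1 against 4. The tenth of myoblasts with the most such UMIs held 80.1% of them, against 42.2% and 46.9% in the injured libraries. At least 20 UMIs were seen in 0.43% of injured cells of library 1 (exact 95% interval 0.14 to 1.01), 1.10% of library 2 (0.65 to 1.74) and 9.47% of myoblasts (8.62 to 10.4). Without thinning the shares were 3.596%, 2.33% and 92.2%, which shows how far depth sets them. Intervals here and below cover counting error only.

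**Figure D3:**
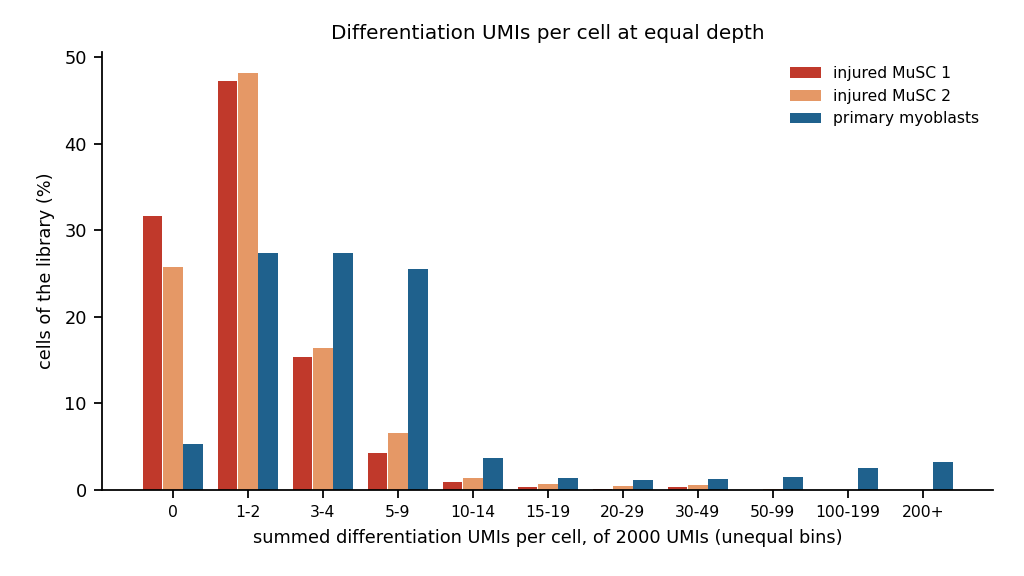
Cells by their summed UMIs of differentiation genes, after thinning to 2000 UMIs, as a percentage of each library's cells. Bins widen to the right and the last has no upper end, so bar heights do not show separate groups. The injured libraries pile up at few UMIs, while 2.54% of myoblasts had 100 to 199 UMIs and 3.14% had 200 or more.

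Within the myoblast library 411 cells had at least 20 differentiation UMIs, 1323 had 5 to 19 and 2604 had fewer than 5. Near the limit, with 15 to 24 UMIs, lay 84 cells, and 136 cells had 200 or more, a range with no upper end. These classes are ranges of a score and not cell types, and what follows is a description within 1 library. Myog UMIs were found in 95.4% of the cells with at least 20, 17.3% of the middle range and 9.18% of the lowest. Mef2c UMIs were found in 56.7%, 1.59% and 0.81%. Pax7 was rarer in the highest range than in the others, with 3.41%, 14.7% and 14.02%, as was Ccnd2, with 28.0%, 66.7% and 70.2%. The cell cycle genes Top2a (3.41%, 16.3% and 18.6%) and Mki67 (2.19%, 9.45% and 9.98%) were also rarer in the highest range. Cdkn1a, the p21 inhibitor that differentiating myoblasts use to stop dividing, was found in 95.9%, 72.6% and 70.9%, and Cdkn1c, the p57 inhibitor, in 21.7%, 2.19% and 0.9985%. Genes high in culture were spread over the ranges in different ways. Spp1 had a mean of 44.0 UMIs per cell in the lowest range, 42.7 in the middle and 9.10 in the highest, whereas H19 was found in 35.6%, 60.2% and 95.4% of cells from lowest to highest, and Igf2 in 1.46%, 4.08% and 32.1%. In the injured libraries 5 and 18 cells reached 20 UMIs, and every one had a Myog UMI.

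Shares of cells with a UMI at 2000 UMIs per cell showed how widely single genes were found. Pax7 was found in 1.04% (0.54 to 1.81) and 1.47% (0.94 to 2.18) of injured cells and in 13.2% (12.2 to 14.2) of myoblasts, and in 0 of 294 and 0 of 313 leukocytes (cells with a Ptprc UMI and no myogenic UMI) of the whole-muscle libraries, which allows shares of up to 1.02% and 0.959%. Cells of injured library 2 with no myogenic UMI had Pax7 in 2.55%, so the injured shares are not read as above background. Such cells passed the same sort and may include MuSCs whose marker UMIs were missed. A comparison with them therefore cannot tell whether MuSCs expressed a gene. Without thinning the Pax7 shares were 5.05%, 3.22% and 75.2%. Myf5 was found in 30.5% and 40.3% of injured cells and 2.35% of myoblasts, and Myod1 in 36.4% and 37.9% against 61.8%. Myog was found in 9.10% and 15.9% against 19.8%. The order of these shares was that of the CPM, which come from the same cells. Myf5, Myod1 and Myog are genes of the cell rule, so their shares are a description only. For lack of a myogenic UMI the rule left out 72 and 400 cells of the injured libraries and 6 myoblasts. Ccnd2 was found in 1.13% and 0.858% of injured cells and 65.1% of myoblasts, while leukocytes had it in 28.6% and 30.7% and injured cells with no myogenic UMI in 3.64% and 2.55%. The injured shares of Ccnd2 were thus below those of both sets of cells and the myoblast share above them. Leukocytes may express Ccnd2 themselves, so the injured shares are not read as absence of expression. Cdkn2a was found in 8.41% and 7.35% against 54.4%, and Gzme in 0.17% and 0 of 1632 cells (a share of up to 0.184%) against 29.0%. Spp1 was found in 99.1% of myoblasts and in 61.7% and 48.5% of injured cells, and leukocytes of whole muscle had it in 0.34% and 0.96%. The whole-muscle libraries carry no injury label, so these leukocytes are not matched to those of injured muscle. Cells of the injured libraries with no myogenic UMI had Spp1 in 67.3% and 51.5%. Its injured shares were far above those of leukocytes but no higher than in the cells with no myogenic UMI. Since those may include MuSCs, the shares are not read as expression by MuSCs in particular, nor as its absence.

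**Figure D4:**
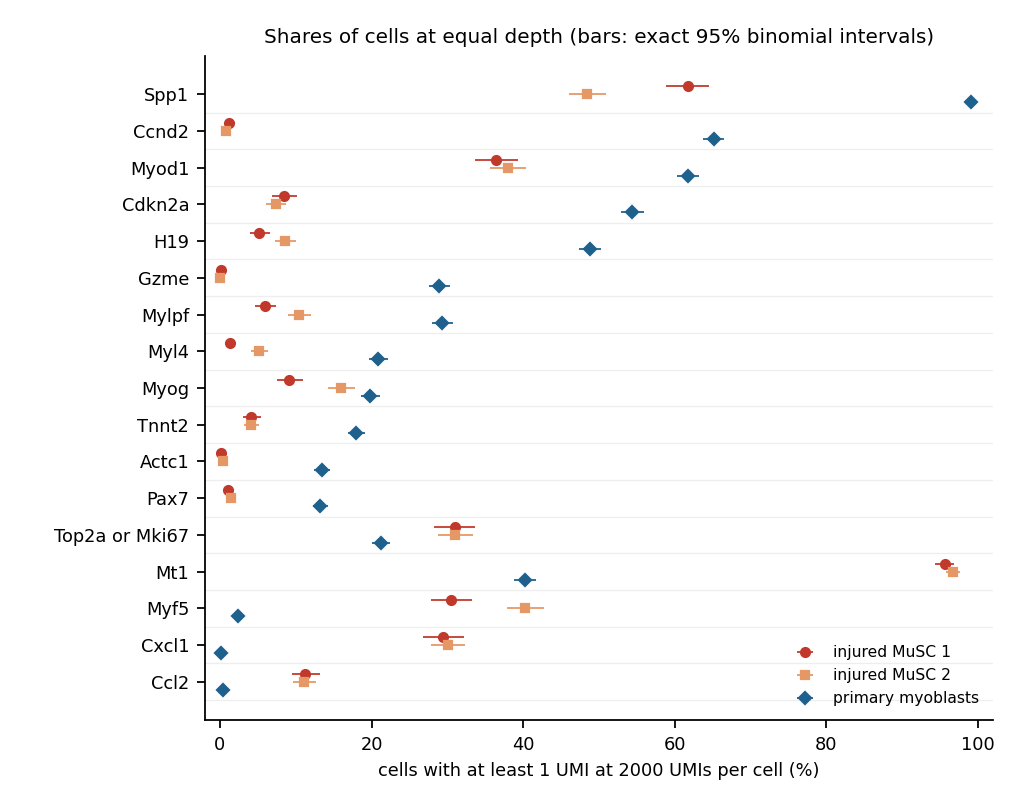
Percentage of cells with a UMI of each gene after thinning to 2000 UMIs, in the injured libraries and the myoblasts, with exact 95% intervals for counting error. Myoblasts are higher for Pax7, Ccnd2, Cdkn2a and Spp1 and lower for Myf5 and Cxcl1.

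Cell cycle genes fell relative to the other genes, in a way that depended on scaling. Of 46 DNA replication genes tested, 1 rose and 24 fell, with a median log2 difference of -0.67. Of 55 mitosis genes, 10 rose and 25 fell, with a median of -0.42. Without scaling the medians were 0.034 and 0.28, and the counts were 13 higher and 13 lower, and 19 higher and 12 lower. So the direction of the lists is relative to the 0.89 shift of all genes in that setting, and DESeq2 gave medians of -0.81 and -0.56. Rrm2, which makes the building blocks of DNA, had 434 and 387 CPM in the injured libraries and 93.3 in the myoblasts (-2.14 ± 0.20, adjusted p = 1.72e-07, edgeR). Pcna, the clamp of the replication fork, had 192 and 168 against 51.2 CPM (-1.82 ± 0.20), and Ccne2, the cyclin of S phase entry, had 155 and 144 against 14.8 CPM (-3.34 ± 0.25). Slbp, which handles histone messages, had 272 and 232 against 13.1 CPM (-4.26 ± 0.23). These replication genes were all lower in culture, and their homeostatic levels were lower than the injured ones. Hells, a chromatin remodeller of dividing cells that has no copy or overlap, fell from 142 and 152 to 44.6 CPM (-1.72 ± 0.20, adjusted p = 1.66e-06, edgeR).

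Among mitosis genes, Birc5 (survivin) fell from 317 and 270.2 to 110.0 CPM, Cenpa, the histone of the centromere, from 306 and 296 to 95.5 CPM, and Cks2, a subunit of cyclin-dependent kinases, from 416 and 354 to 87.2 CPM. Hmgb2, a chromatin protein whose 9 near-identical copies make its value uncertain, had 1255 and 1129 CPM against 84.1. Top2a, the mitotic topoisomerase, had 238 and 229.6 CPM against 111 (-1.08 ± 0.19, adjusted p = 0.000136 with edgeR and 0.0672 without scaling). Mki67, the proliferation marker, had 49.96 and 48.8 CPM against 42.8, with an adjusted p of 0.437 in edgeR (log2 difference -0.21, and 0.50 without scaling). The fall was therefore uneven, and Mki67 was not distinguished between the groups. Psrc1, which acts on spindle microtubules, and Gtse1, which restrains p53 in G2, were among the members that rose, from 4.49 and 2.49 to 48.5 CPM (3.75 ± 0.28) and from 6.46 and 4.40 to 18.0 CPM (1.70 ± 0.27). At 2000 UMIs per cell, Top2a or Mki67 was found in 30.9% and 31.0% of injured cells and 21.2% of myoblasts, and without thinning in 65.0%, 43.6% and 50.6%. Top2a alone was found in 26.1% and 26.4% against 16.5%. Mki67 alone was found in 7.19% and 7.48% against 9.08%, against the order of its CPM, so no order is read from it, and Cdk1, the mitotic kinase, in 16.9% and 13.8% against 17.3%. The lower combined share was therefore that of Top2a. Among cells with Myog the combined shares were 16.2% and 15% against 13.8%, and without thinning 50.2% and 28.8% against 49.9%. Summed over the mitosis list, at least 5 UMIs were found at 2000 UMIs per cell in 88.9% and 84.9% of injured cells and 43.3% of myoblasts. For the DNA replication list the shares were 62.3% and 55.5% against 30.8%. Both sums include genes with near-identical copies, and without thinning both differences turned positive.

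A D cyclin and several inhibitors of cyclin-dependent kinases changed, in both directions. Ccnd2, a D cyclin that takes cells through G1, had 4.07 and 5.93 CPM in the injured libraries, 9.92 and 5.21 in homeostatic cells and 537 in the myoblasts (6.78 ± 0.26, adjusted p = 4.19e-12, edgeR). Cdkn2a, the locus of the p16 and p19ARF proteins that accumulates in culture, had 60.1 and 48.0 CPM against 352 (2.70 ± 0.19, adjusted p = 4.55e-09, edgeR). Its neighbour Cdkn2b, which encodes p15, had 11.9 and 9.57 against 75.1 CPM (2.79 ± 0.22). Cdkn2c, which encodes p18, fell from 48.7 and 42.7 to 15.6 CPM (-1.55 ± 0.23), as Cdkn1b did. The inhibitor genes thus split, with p15 and p16 genes up and p18 and p27 genes down. Cdkn1a had 585 and 610.0 CPM against 738, with an adjusted p of 0.21 in edgeR (log2 difference 0.30). It passed the threshold without scaling (1.01, adjusted p = 0.000631) and without the filter on low counts (0.48, adjusted p = 0.0316).

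Targets of the stress factor p53 rose more often than they fell, 14 against 5 of 22, with a median log2 difference of 0.79 (1.497 without scaling, 0.65 with DESeq2). Phlda3, an inhibitor of AKT, rose from 92.1 and 79.2 to 409 CPM (2.25 ± 0.19, adjusted p = 4.27e-08, edgeR). Ccng1, cyclin G1, rose from 27.5 and 22.8 to 209.6 CPM (3.05 ± 0.19), and Mdm2, which degrades p53, from 78.9 and 58.9 to 168 CPM (1.28 ± 0.19). Bax, an effector of cell death, rose from 391 and 368 to 651 CPM (0.78 ± 0.17). Among the members that fell were Plk2, a stress kinase, from 206 and 212 to 75.3 CPM, and Pmaip1 (Noxa), another effector of cell death, from 53.7 and 46.7 to 14.7 CPM. So the list holds members that moved each way, and Cdkn1a, its best known one, did not pass the test.

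Of 20 FGF receptor and ERK feedback genes, 8 rose and 4 fell, near the shares over all genes (32.7% higher and 25.2% lower), so nothing is read from the count. Their median log2 difference was 0.75 (0.28 with 3 libraries in the fit) beside 0.19 over all genes. Dusp6 and Dusp4, phosphatases that switch off ERK kinases, rose from 10.5 and 8.99 to 59.1 CPM (2.59 ± 0.22) and from 9.96 and 9.57 to 46.0 CPM (2.23 ± 0.23). Etv4, a transcription factor induced by ERK, rose from 11.8 and 10.1 to 38.9 CPM (1.82 ± 0.22, adjusted p = 2.9e-06, edgeR). Spry2, a feedback inhibitor of receptor signalling, went the other way, from 381 and 501 to 28.6 CPM, with 255 and 326 in homeostatic cells (-3.94 ± 0.25, adjusted p = 1.91e-09, edgeR). The feedback genes were thus not moved as one.

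Notch receptors, ligands and targets fell more often than they rose, 7 against 3 of 15, with a median of -0.73 (-0.03 without scaling). That order depended on scaling, since without it 4 were lower and 5 higher. Notch2, the receptor, had 286 and 464 CPM in the injured libraries, 55.1 and 48.9 in homeostatic cells and 9.02 in the myoblasts (-5.38 ± 0.31, adjusted p = 5.58e-10, edgeR). Jag1, a ligand, fell from 29.8 and 32.1 to 1.04 CPM (-4.88 ± 0.30). Notch1 rose from 8.70 and 5.74 to 30.01 CPM (2.03 ± 0.26, adjusted p = 6.72e-06, edgeR). The receptors thus changed in opposite directions. Both receptor genes have a near-identical copy or an overlapping exon.

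Several imprinted and fetal growth genes were higher in the myoblasts. Of 23 genes of the IGF axis and imprinted loci, 11 rose and 4 fell, with a median log2 difference of 0.94. In the fit restricted to genes without copies or overlaps 4 of 12 were higher and 5 lower, with a median of -0.12. H19, the imprinted non-coding RNA next to Igf2, rose from 38.2 and 64.1 to 562 CPM, with 5.25 and 3.26 in homeostatic cells (3.47 ± 0.24, adjusted p = 4.16e-09, edgeR). Igf2, the growth factor itself, rose from 1.40 and 2.296 to 26.6 CPM (3.89 ± 0.30). Mest and Peg3, both expressed from the paternal copy, rose from 87.1 and 101 to 306 CPM and from 103 and 121 to 317 CPM. Grb10, an imprinted brake on insulin and IGF signalling, fell from 110.2 and 129.5 to 6.17 CPM (-4.28 ± 0.24, adjusted p = 3.14e-10, edgeR). So of the named imprinted genes, Grb10 moved against the others. Of 6 oncofetal genes 5 rose and 1 fell (median 2.02), and with DESeq2 2 were higher and 1 lower (median 1.87). Hmga2, a chromatin protein of embryonic and dividing cells, rose from 104 and 96.6 to 361 CPM (1.85 ± 0.18, adjusted p = 2.34e-07, edgeR), and Igf2bp2, an RNA-binding protein of satellite cells, from 7.86 and 10.9 to 42.2 CPM (2.19 ± 0.23). Homeostatic cells had 0.292 and 0.651 CPM of Hmga2 but 73.8 and 93.8 of Igf2bp2, more than the myoblasts. Hmga1, a relative of Hmga2, fell from 303 and 262 to 72.1 CPM (-1.97 ± 0.21).

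Matrix genes changed in both directions, with 15 of 37 collagen and fibrous matrix genes higher and 12 lower. Over all genes 32.7% were higher and 25.2% lower. The median of the matrix genes was at 0.00 beside 0.19 over all genes, and its sign depended on the setting (0.49 without scaling, -0.36 with DESeq2). Spp1, the secreted phosphoprotein osteopontin, had 724 and 468 CPM in the injured libraries, 3.79 and 5.54 in homeostatic cells and 15185 in the myoblasts (4.67 ± 0.20, adjusted p = 1.73e-11, edgeR). Sparc, a collagen-binding matrix protein, rose from 74.9 and 76.0 to 966 CPM (3.68 ± 0.19), and Timp1, an inhibitor of matrix proteases, from 139 and 137 to 553 CPM (2.00 ± 0.17). Col1a2, a chain of fibrillar collagen I, fell from 80.3 and 82.3 to 5.34 CPM (-3.93 ± 0.27). These secreted matrix-associated genes rose while the collagen I chain fell. Loxl2, a collagen cross-linking enzyme, fell from 311 and 461 to 1.88 CPM, but has 130 near-identical copies elsewhere and is uncertain.

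Basement membrane genes and their receptors rose more often, 11 against 3 of 19 (median 0.87, and 0.00 in the fit restricted to genes without copies or overlaps). Col4a1, a chain of the sheet-forming collagen IV, had 0.561 and 1.15 CPM in injured cells, 32.8 in the myoblasts and 162 and 141 in homeostatic cells (5.33 ± 0.32, and 4.36 with cells thinned to 2000 UMIs). Col18a1, another basement membrane collagen, rose from 2.67 and 1.91 to 60.6 CPM (4.69 ± 0.27, adjusted p = 4.13e-10, edgeR). Lamb1, a laminin chain, rose from 9.12 and 7.65 to 74.3 CPM (3.14 ± 0.22, adjusted p = 5.69e-09, edgeR). Their integrin receptors split. Itga6 rose from 2.53 and 2.49 to 77.8 CPM (4.95 ± 0.26), while Itga7, the laminin receptor typical of satellite cells, had 94.2 and 90.7 against 56.3 CPM (-0.72 ± 0.19, adjusted p = 0.0038 with edgeR and 0.954 without scaling). Both integrin genes have near-identical copies.

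Contractile cytoskeleton genes and targets of SRF and YAP, factors that respond to actin tension and stiff surfaces, rose in 13 and fell in 7 of 28 (median 0.33 beside 0.19 over all genes). The share that fell was that of all genes tested (25.2%), and 32.7% of all genes rose. Acta2, the smooth muscle actin, had 29.8 and 33.9 CPM in the injured libraries, 125 and 102.3 in homeostatic cells and 718 in the myoblasts (4.50 ± 0.19, adjusted p = 1.55e-11, edgeR). Cnn2, a calponin that binds actin, rose from 7.44 and 7.84 to 216 CPM (4.83 ± 0.24), Cald1, caldesmon, from 245 and 248 to 817 CPM (1.73 ± 0.18), and Ankrd1, a YAP target, from 495 and 494 to 1092 CPM (1.14 ± 0.17). Thbs1, another YAP target, fell from 182 and 358 to 44.0 CPM (-2.61 ± 0.32). Acta2 is also made by mural cells. The log2 differences of the 3 mural markers tested ran from -4.60 to 7.16. Mural markers summed to 65.4 and 29.4 unscaled CPM in homeostatic cells, above the 8.75 of the myoblasts. The part of mural cells was not tested.

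Chemokine, cytokine and NF-kappaB genes fell more often than they rose, with 20 of 30 lower and 6 higher (median log2 difference -2.07 beside 0.19 over all genes). Without scaling 13 of 30 were lower and 7 higher (median -1.37), and with cells thinned to 2000 UMIs 14 of 29 were lower and 6 higher (median -1.20). The 250 bases upstream of Cxcl1 and Cxcl2 are printed because each holds GGAATTTCC, a form of the site bound by NF-kappaB. Cxcl1 lies at chr5:90890995-90891244 and Cxcl2 at chr5:90903649-90903898, both on the plus strand of GRCm38.p6 from RefSeq, with the motif in capitals.
Cxcl1: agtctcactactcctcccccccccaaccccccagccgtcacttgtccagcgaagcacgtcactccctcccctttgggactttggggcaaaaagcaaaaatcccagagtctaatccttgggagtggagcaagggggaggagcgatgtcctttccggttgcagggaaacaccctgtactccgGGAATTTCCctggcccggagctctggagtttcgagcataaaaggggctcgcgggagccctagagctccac
Cxcl2: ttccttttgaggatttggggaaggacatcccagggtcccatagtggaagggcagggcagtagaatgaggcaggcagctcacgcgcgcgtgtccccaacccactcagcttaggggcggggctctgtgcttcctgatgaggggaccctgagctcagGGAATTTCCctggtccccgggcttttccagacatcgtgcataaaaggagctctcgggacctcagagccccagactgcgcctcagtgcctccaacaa
The motif begins 70 and 96 bases before the start. Searched on both strands, it was found in 93 of 27025 genes with a promoter (0.344%) and in 6 of the 21 inflammatory genes with one (28.6%), Nfkbia among them, and in 0 of the 31 differentiation genes. No match says only that these letters are not in the window.

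Cxcl1, a chemokine that draws neutrophils, had 328 and 337 CPM in the injured libraries, 0.588 in the myoblasts and 5786 and 8806 in homeostatic cells (-9.13 ± 0.32, adjusted p = 1.52e-12, edgeR). Cxcl2, a close relative, had 36.5 and 40.2 CPM against 0.0264, which is 4 UMIs, and 1060.0 and 2339.5 in homeostatic cells. Nfkbia, the inhibitor that NF-kappaB itself induces, fell from 331 and 286 to 32.5 CPM (-3.25 ± 0.20, adjusted p = 1.5e-09, edgeR). The order was the same for these genes, homeostatic above injured above myoblasts. Ccl2, a monocyte chemokine, had 97.8 and 109 CPM against 3.07 (-5.07 ± 0.24). At 2000 UMIs per cell, Cxcl1 was found in 29.5% and 30.1% of injured cells and 0.16% of myoblasts, above the 20.7% and 27.5% of leukocytes of whole muscle but below the 43.6% and 32.1% of cells with no myogenic UMI in the same injured libraries. The injured shares of Ccl2, at 11.3% and 11.1%, were below the 12.2% and 17.3% of leukocytes. They were also below the 23.6% and 16.3% of cells with no myogenic UMI. Leukocytes may express these chemokines themselves, so their shares are no measure of background. The chemokine shares were thus no higher than in cells with no myogenic UMI, which may include MuSCs. They are not read as expression by the injured MuSCs, nor as its absence. The macrophage and neutrophil markers given above were higher in the injured libraries too. Il33, an alarm cytokine, was among the members that rose, from 4.91 and 4.02 to 49.4 CPM (3.45 ± 0.31, adjusted p = 1.15e-07, edgeR).

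Of 15 genes of antigen presentation on MHC class I, 2 rose and 9 fell (median -0.88, -0.18 without scaling). H2-K1 and H2-D1, heavy chains of MHC class I whose values are uncertain because of near-identical copies, had 27.5 and 23.9 CPM against 10.4 and 92.2 and 62.4 against 29.4. Their homeostatic levels were far higher, at 509.7 and 553 and at 1106 and 1233. Psmb10, a subunit of the immunoproteasome, fell from 121 and 118 to 33.7 CPM (-1.83 ± 0.21, adjusted p = 2.34e-06, edgeR).

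Metallothioneins and several early response genes were also lower in the myoblasts. Mt1 and Mt2, which bind zinc and copper, fell from 2773 and 2861 to 226 CPM (-3.64 ± 0.20, adjusted p = 2.08e-10, edgeR) and from 1729.5 and 1610.3 to 60.3 CPM (-4.79 ± 0.18). Homeostatic cells had 12151 and 9220.0 CPM of Mt1. Injured cells with no myogenic UMI had Mt1 in 90.9% and 98.0% at 2000 UMIs, near the 95.7% and 96.8% of the kept cells. Of 27 immediate early genes, which respond within minutes to stress and also to tissue dissociation, 7 rose and 13 fell, with a median of -0.64 that became 0.062 without scaling. Junb fell from 383 and 309 to 60.7 CPM (-2.51 ± 0.22), Jund from 536 and 515 to 152 CPM (-1.79 ± 0.24), Myc from 129.5 and 108 to 25.8 CPM (-2.21 ± 0.20) and Klf4 from 118 and 91.5 to 33.6 CPM (-1.65 ± 0.26). Egr1 rose from 7.86 and 8.04 to 49.0 CPM (2.63 ± 0.24, adjusted p = 1.42e-07, edgeR), with 824 and 547 in homeostatic cells. All of these were highest in homeostatic cells, and Egr1 was lowest in the injured ones.

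**Figure D5:**
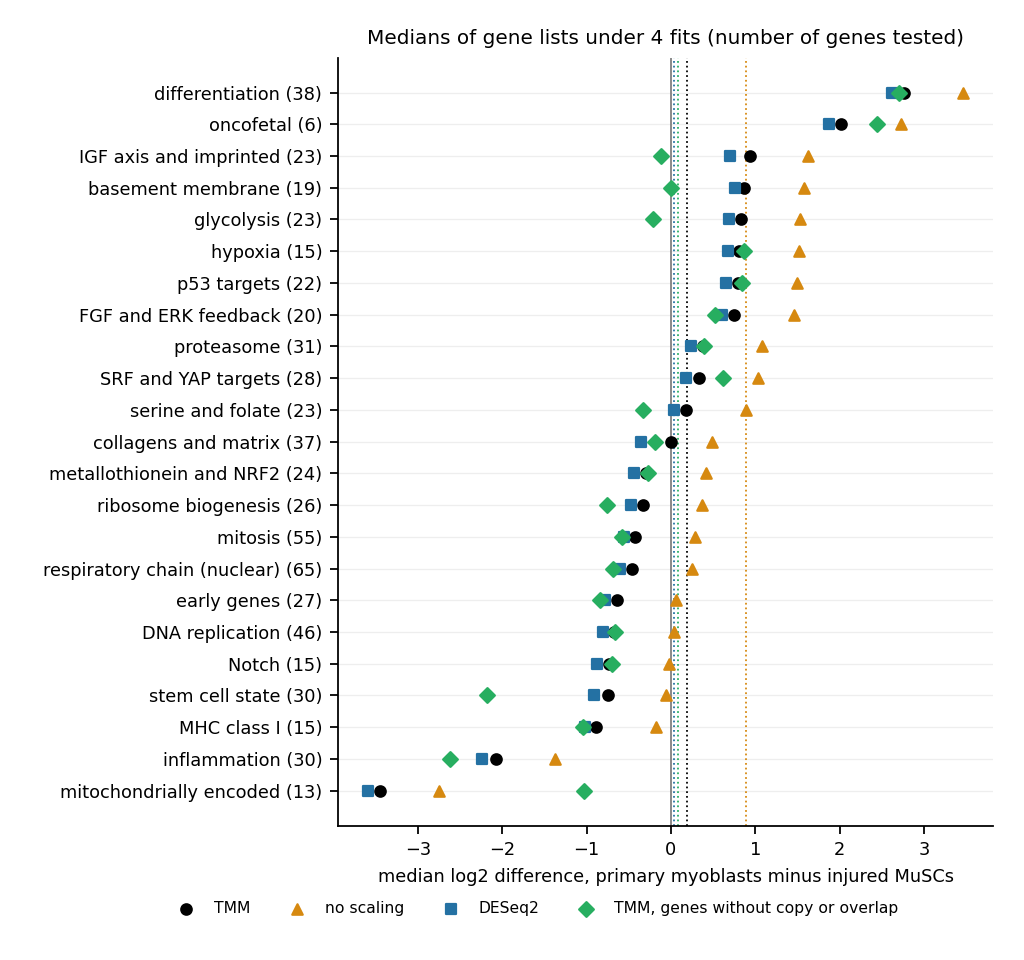
Median log2 difference, myoblasts minus injured MuSCs, of each gene list (number of genes tested in brackets) under 4 fits: TMM scaling, no scaling, DESeq2, and TMM with only genes without copies or overlaps. Dotted lines in the same colours mark the medians of all genes tested. Differentiation genes lie far to the right in all 4, inflammation and mitochondrially encoded genes to the left, and the DNA replication, mitosis and respiratory chain lists are among those that cross 0 without scaling.

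The largest rises included genes with no UMI in the injured cells. Grem1, a secreted antagonist of BMPs, had no UMI in either injured library and 11724 in the myoblasts, at 77.4 CPM, and 2.04 and 0 CPM in homeostatic cells. Against a floor of 3 UMIs over the injured group it was at least 319-fold higher (adjusted p = 1.02e-09 with edgeR, 0.119 with DESeq2). Nefl, the light neurofilament of neurons, had no UMI in the injured libraries or homeostatic cells and 58.2 CPM in the myoblasts, at least 239-fold higher. Genes of the granzyme and mast cell protease families were also among the largest rises. Gzmd was at 0 in all 4 sorted libraries and at 75.9 CPM in the myoblasts, at least 312-fold higher. Gzme, its near-identical neighbour in sequence, had 0.421 and 0.191 CPM (4 UMIs in all) against 166 (8.98 ± 0.34, and 9.74 without injured library 1). Mcpt8, a gene of the mast cell protease family, had 9.12 and 8.99 CPM against 391.9 and was at 0 in homeostatic cells (5.43 ± 0.21, adjusted p = 1.1e-11, edgeR). Lymphocyte markers summed to 0.345 and 0.160 unscaled CPM in the injured libraries and 0.107 in the myoblasts. The cell rule had left out cells with a Ptprc UMI, so nothing is read from these low sums. Which cells made the granzyme and Mcpt8 RNA was not tested. Gzme was found in 9.98% of the most differentiated range of myoblasts, 35.6% of the middle and 28.6% of the lowest. Pdlim2, a protein of actin fibres, rose from 1.12 and 0.765 to 133 CPM (7.10 ± 0.32).

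The largest falls included genes higher in the injured libraries than in both other groups. Slamf1, a receptor of immune cells, had 83.1 and 91.1 CPM against 0.0858, and 2.92 and 0.326 in homeostatic cells (-9.93 ± 0.44, and -8.24 with cells thinned to 2000 UMIs). Fry, a large protein of the cell cortex, had 364 and 391 CPM against 2.03, and 57.5 and 47.2 in homeostatic cells (-7.53 ± 0.28, adjusted p = 2.84e-12, edgeR). Neither gene has a near-identical copy or an overlapping exon. Lepr, the leptin receptor, had 84.8 and 89.2 against 0.0792 CPM, and the histone gene Hist1h2ap, with 39 near-identical copies, 308 and 246 against 0.0528. Both have copies and are uncertain. Over all genes, homeostatic cells were nearer to the myoblasts than to the injured cells for 57.4% of the genes that fell and 42.9% of those that rose.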

How the data were processed

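Libraries were made with a droplet 3′ kit, per the labels' protocols. Per the submitters' processing notes, the build was mm10 and the tools included Cell Ranger 2.2.0, with bcl2fastq 2.17.1 and also Seurat 2.3.4; the role of each is not given in the sources used here. The authors deposited UMI counts per gene and cell for 27998 genes, unnormalised whole numbers without cell type labels. UMIs of kept cells were summed per library and fitted with edgeR 4.0.16 (R 4.3.3; TMM scaling, filterByExpr, quasi-likelihood test, Benjamini-Hochberg adjustment) over 5 libraries (2 injured, 2 homeostatic, 1 myoblast); the contrast was myoblast minus injured. Each log2 difference is given with its standard error. DESeq2 1.42.0, other scalings, filters, cell rules and left-out libraries were alternatives. Depth per cell limits single-cell shares: cells were thinned to 2000 UMIs, or 1000 as an alternative, with exact binomial intervals. A group with no UMI was given a floor of 3 counts over the group. The fit was run on simulated data in which few genes changed, equally often in each direction, and every library had the same assumed spread. It therefore does not show how the fit performs with 1 myoblast library of unmeasured spread or with a shift of many genes. No doublet caller was run.

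Gene copies were searched with blastn 2.17.0 among the last 300 bases of transcripts (at least 90 bases at 95% identity). Promoters came from a RefSeq table.

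The cells, genes and lists were chosen with earlier results of these data known. Genes are named from the lists (the most abundant called members and those against the main direction), every tested myogenic factor but 1, which is not reported here, and the largest changes among called genes with at least 50 CPM in the higher group. Cxcl2, Igf2, Top2a, Mki67 and Cdkn1a, and members named for contrast, were picked after their values were seen.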

Additional observations from a re-analysis of the deposited data

How the results depend on the processing

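Of 120 genes named and tested, 113 passed the test in edgeR and 100 of those passed it in the same direction in every alternative that gave a value. The number of genes higher in the myoblasts went from 4062 to 7168 without scaling, 1759 with DESeq2 and 2402 with cells thinned to 1000 UMIs, and that of genes lower from 3127 to 1661 without scaling. With only genes without copies or overlaps in the fit, chosen after seeing the data, 1766 were higher and 1649 lower of 6233 tested. Leaving out 1 injured library gave 2702 to 2774 higher and 2277 to 2334 lower; these fits have fewer samples. Without scaling the sign turned for Mef2a (0.41), Id1 (0.31) and Mki67 (0.50), none of them called, and, among the lists described here, for the medians of the S phase (0.034), mitosis (0.28), early response (0.062), collagen and matrix (0.49), respiratory chain (0.24), ribosome biogenesis (0.37) and redox (0.41) lists, as well as that of the myogenic factors (-0.14 to 0.56). The sign of other members that were not called also turned: Mef2d was at 0.61 without scaling, 0.075 without the filter, 0.043 at 1000 UMIs and 0.022 with GC-rich barcodes, and Eya4 at 0.52 without scaling and 4.39 at 1000 UMIs. Leaving out 1 injured library gave -0.245 to 0.083 for Mef2d, -0.51 to 0.41 for Eya4 and -0.008 to 0.86 for Myf6. The collagen and matrix median was also above 0 with 3 libraries in the fit (0.23), with GC-rich barcodes (0.37) and with the stricter cell rule (0.55). In the fit of genes without copies or overlaps the medians of the IGF (-0.12), glycolysis (-0.21) and serine and folate (-0.33) lists fell below 0. Apart from the restriction to fewer genes or samples, the cause was not tested. Without thinning, the myoblast minus injured difference turned positive for cells with at least 5 mitosis UMIs (5.11 percentage points) and at least 5 S phase UMIs (11.6). At 2000 UMIs per cell both shares were far lower in the myoblasts than in both injured libraries. The difference also turned positive for Top2a or Mki67 among cells with Myog (10.4). No paired analysis was possible because the single myoblast library carries no replicate number. The depth of injured library 2 (3286 UMIs per cell) limits what a share can show, and 1 myoblast library leaves its own spread unmeasured.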

Other observations

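Genes of energy metabolism changed in both directions. Of 13 mitochondrially encoded genes, 12 were lower in the myoblasts and none was higher (median log2 difference -3.45; without scaling 9 were lower and 1 higher, median -2.74). Of these only mt-Cytb has neither a near-identical copy nor an overlap, and its log2 difference was -0.83 ± 0.15 (adjusted p = 0.000176, edgeR), while mt-Nd4l, which has both, had 5898 and 3739 UMIs in the injured libraries and 0 in the myoblasts and in both homeostatic libraries. The median thus rests on genes whose counting is uncertain. Mitochondrial genes took 3.87% and 3.62% of injured UMIs against 1.09%. The kept cells were limited to 10% of such UMIs by the rule. Of 65 nuclear genes of the respiratory chain and ATP synthase, 8 rose and 35 fell (median -0.46, which became 0.24 without scaling). Cox8a, a subunit of the last complex, had 2457 and 2516 CPM in the injured libraries and 1348 in the myoblasts (-0.88 ± 0.16, adjusted p = 0.000174 with edgeR and 0.261 without scaling). Cycs, cytochrome c, fell from 1733 and 1563 to 207 CPM but has 4 near-identical copies. Atp5b, the catalytic subunit of ATP synthase, rose from 856 and 655 to 1192 CPM (0.66 ± 0.18). Glycolysis genes rose in 13 and fell in 6 of 23 (median 0.82), and in the fit of genes without copies or overlaps the median was -0.21. Ldha, which makes lactate, rose from 589.8 and 483 to 1179.9 CPM and Aldoa, an aldolase, from 849 and 652 to 1329.7 CPM, while Gapdh had 1781 and 1415 against 896 CPM (-0.83 ± 0.18, adjusted p = 0.000944 with edgeR and 0.495 without scaling). Ldha, Gapdh and Aldoa have 82, 167 and 4 near-identical copies and are uncertain. Atp5b has a near-identical copy as well.

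Serine and folate genes rose in 10 and fell in 5 of 23, near the shares over all genes (32.7% higher and 25.2% lower), with a median of 0.18 beside 0.19 over all genes (-0.33 in the fit of genes without copies or overlaps). Nothing is read from that count. Atf5, a transcription factor of the amino acid response, rose from 12.8 and 14.9 to 279 CPM, with 100.4 and 108 in homeostatic cells (4.34 ± 0.20, adjusted p = 2.8e-11, edgeR). An exon of Atf5 overlaps another gene, so its value is uncertain. Asns, which makes asparagine, rose from 46.2 and 33.9 to 283 CPM (2.81 ± 0.20). Phgdh, the first enzyme of serine synthesis, rose from 241 and 183 to 510.1 CPM (1.26 ± 0.19, with 15 near-identical copies, uncertain). Proteasome subunits rose in 14 and fell in 3 of 31 (median 0.37). Ribosome biogenesis genes rose in 1 and fell in 12 of 26 (median -0.33, which became 0.37 without scaling), among them Ncl, nucleolin, from 1445 and 1371 to 761 CPM (adjusted p = 0.000728 with edgeR and 0.361 without scaling). Ncl has a near-identical copy and is uncertain. Hypoxia targets rose in 9 and fell in 3 of 15 (median 0.81). Bnip3, a mitophagy receptor, rose from 17.0 and 15.7 to 70.4 CPM (6 near-identical copies, uncertain), and Vegfa, the vessel growth factor, fell from 156 and 176 to 21.5 CPM (-2.95 ± 0.21, adjusted p = 7.42e-09, edgeR). Redox and metal genes split, with 9 higher and 10 lower of 24, beside 32.7% higher and 25.2% lower over all genes.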
